A study of Homo sapiens with 9 samples.

Results

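The genes described here are 10 that were nearly silent in wild-type endothelial cells and expressed in clones of the same line that lack CCM3. They are DNASE1L3, A2M, CPE, SCUBE1, TSPAN7, CLIC2, PGM5, FAM65B, PPP2R2C and KIF19, and they are 10 of the 28514 gene symbols in the count table. They were chosen by name for low values in the 3 wild-type libraries and high values in the 3 knockout libraries, and genes already placed in another family were left aside. Their difference between knockout and wild-type is therefore given as a description with no test. Knockout on fibronectin against wild-type uses the same 3 wild-type libraries and is treated in the same way.

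The series measured poly-A RNA in 9 libraries of CI-huVEC, an immortalized line made from endothelial cells of the human umbilical vein, at passage 31. The first group held CCM3 -/- clones 21, 22 and 23 after 48 h on fibronectin at 5 µg per square centimetre. The second held the same CCM3 -/- clones with no treatment, and the third held wild-type lines 1, 2 and 3 with no treatment. Exon 3 of CCM3 was edited with CRISPR/Cas9, and every library carries the same clone label, HKO. Each knockout clone gave 1 library per condition. The knockout lines are clonal and the wild-type ones are not said to be, so genotype and clonal origin cannot be told apart wherever wild-type is compared. Nothing in the labels says that libraries of a group came from separate cultures, so p-values measure only the spread between these libraries.

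CCM3, also named PDCD10, is a small adaptor protein that holds germinal centre kinases in the STRIPAK complex, where protein phosphatase 2A is also bound. Its loss in endothelial cells causes cerebral cavernous malformations, clusters of dilated and leaky vessels. Endothelial cells line vessels, secrete enzymes and inhibitors into blood, and hold their junctions through the actin cytoskeleton. The 10 genes encode products with distinct roles in and around such a cell. DNASE1L3, A2M, CPE and SCUBE1 encode secreted or surface-bound proteins, TSPAN7 a membrane protein and CLIC2 a protein of the chloride intracellular channel family. PGM5, PPP2R2C and KIF19 act in adhesion sites, in phosphatase complexes and on microtubules, and FAM65B encodes an intracellular protein. The genes are spread over the genome, with CPE and PPP2R2C on chromosome 4, TSPAN7 and CLIC2 on chromosome X, and the others on chromosomes 3 (DNASE1L3), 12 (A2M), 22 (SCUBE1), 9 (PGM5), 6 (FAM65B) and 17 (KIF19).

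Total counts ran from 24406001 to 33971610 on fibronectin, from 25982627 to 29930894 in knockout and from 26453753 to 30280241 in wild-type. PDCD10 averaged 36.4 ± 1.30 CPM in knockout on fibronectin, 38.5 ± 3.43 CPM in knockout and 49.2 ± 3.49 CPM in wild-type (SD, n = 3 each), where CPM is counts scaled to a common library size. Its mRNA was thus lower but present, with a log2 fold change in knockout against wild-type of -0.36 (edgeR, SE 0.0778, adjusted p 0.00186). The summed level of 10 endothelial markers was 5983 to 6962 CPM on fibronectin, 5932 to 6345 CPM in knockout and 2412 to 2670 CPM in wild-type. At an adjusted p under 0.05 in knockout against wild-type (edgeR), 7 of them rose, 0 fell and 3 were not called. Of all tested genes 23% rose and 27% fell. The markers did not move evenly, with log2 fold changes from -1.34 to 3.04. The 10 smooth muscle and pericyte markers summed to 8.84 to 9.60, 9.80 to 10.6 and 85.3 to 93.9 CPM in the same order of groups, and the 9 fibroblast markers summed to 2.56 CPM or less. Markers of hepatocytes (7 genes) summed to at most 0.268 CPM and those of epithelial cells (9 genes) to at most 1.51 CPM. The 8 neuronal markers summed to 30.9 to 38.7 CPM on fibronectin, 24.3 to 29.4 CPM in knockout and 50.1 to 61.1 CPM in wild-type, and the 9 leukocyte markers to 32.5 to 34.9, 27.6 to 28.6 and 17.4 to 18.2 CPM. RBFOX3 of neurons, TTR of hepatocytes, LUM of fibroblasts, KCNJ8 of pericytes, and KRT14 and CLDN4 of epithelia were at 0 counts in all 9 libraries.

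Windows around the start of transcription, taken from RefSeq, were used for 5 of the 10 genes, and 3 of them, DNASE1L3, CPE and CLIC2, have exactly 1. The 250 bases before the start of these 3 are shown because they are the sequence next to the starts of 3 genes that share the same pattern of levels. Coordinates are RefSeq's on GRCh38.p14 and were not transferred to the GRCh37 build of the counts. The DNASE1L3 sequence is chr3:58210973-58211222 on the minus strand, that of CPE is chr4:165378758-165379007 on the plus strand, and that of CLIC2 is chrX:155334615-155334864 on the minus strand. Capitals mark matches on either strand to CACCC (the core bound by Krüppel-like factors), TGANTCA (the AP-1 site), TATAAA (the TATA box) and CGGAAGT (an ETS site). A match on the other strand reads as its reverse complement, such as GGGTG for CACCC.
DNASE1L3: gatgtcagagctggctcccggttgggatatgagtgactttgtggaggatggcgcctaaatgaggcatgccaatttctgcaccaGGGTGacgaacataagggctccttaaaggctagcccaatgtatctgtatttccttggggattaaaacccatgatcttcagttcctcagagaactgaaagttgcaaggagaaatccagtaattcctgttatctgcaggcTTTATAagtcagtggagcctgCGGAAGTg
CPE: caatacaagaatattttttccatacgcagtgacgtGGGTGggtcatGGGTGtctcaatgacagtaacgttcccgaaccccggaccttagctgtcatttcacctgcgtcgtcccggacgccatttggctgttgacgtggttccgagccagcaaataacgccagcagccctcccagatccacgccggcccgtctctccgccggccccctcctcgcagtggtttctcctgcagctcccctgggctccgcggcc
CLIC2: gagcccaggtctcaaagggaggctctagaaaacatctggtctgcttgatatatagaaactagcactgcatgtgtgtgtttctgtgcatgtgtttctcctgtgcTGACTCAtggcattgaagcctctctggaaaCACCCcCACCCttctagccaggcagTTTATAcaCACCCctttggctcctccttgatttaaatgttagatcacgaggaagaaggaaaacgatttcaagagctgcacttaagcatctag

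The 3 promoters did not look alike. Over the whole 300-base window, which also holds 50 bases after the start, CPE had 24 CpG dinucleotides and a GC content of 62%. DNASE1L3 had 4 CpG and 48.3% GC, and CLIC2 had 3 CpG and 47.0% GC, against medians of 14 CpG and 58.7% GC over all 35116 windows. Positions count back from the start to the leftmost base of a match as printed. DNASE1L3 held CGGAAGT at position -8, and TATAAA at position -29 on the strand opposite to the gene's, so that it is printed as TTTATA. CLIC2 held TGANTCA at position -147, and TATAAA at position -92, also on the opposite strand. CACCC occurred in all 3 windows, once in DNASE1L3 and 3 times each in CPE and CLIC2, but 59.9% of all windows hold it. The last CPE match lies after the start, at position 43, outside the printed bases. TATAAA is in 11.5% of all windows, TGANTCA in 7.71% and CGGAAGT in 6.83%. The Forkhead motif TGTTTAC, in 3.42% of windows, matched none of the 3. The motif CANNTG, in 68.7% of windows, had 0 matches in DNASE1L3, 2 in CPE and 3 in CLIC2, and is not marked in the printed bases. FAM65B, listed by RefSeq as RIPOR2, and PPP2R2C have 5 windows each, and the counts do not say which start was used. These matches are a description of the letters only.

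All 10 genes passed the filter on low counts, through their knockout libraries. All 10 passed an adjusted p of 0.05 for higher levels in knockout (edgeR), where 23% of the 13802 tested genes did so, and all 10 in knockout on fibronectin, where the share was 29%. The rule fixes both counts, so nothing is read from them. In all 10 every knockout library lay above every wild-type library, as in 28.2% of tested genes, and every library on fibronectin did too, as in 31.6%. The rule also fixes this for knockout, and the libraries on fibronectin are set against the same wild-type libraries. Nothing is read from these counts either. Because these are bulk libraries, fewer expressing cells and less RNA per cell cannot be told apart. Fold ratios below are of summed counts scaled for depth, and their 95% exact intervals cover counting error only.

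DNASE1L3, a secreted nuclease that digests chromatin in blood and whose loss causes a monogenic form of lupus, had 136.6, 71.6 and 25.5 CPM in clones 21, 22 and 23 on fibronectin and 115.1, 57.6 and 28.4 CPM in the same clones without it. In wild-type lines 1, 2 and 3 it had 0.369, 0.303 and 0.361 CPM, from 10, 9 and 11 counts. The clones spread widely while the wild-type lines lay close together. The ratio to wild-type was 217 on fibronectin (95% interval 152 to 322) and 190 in knockout (133 to 281). Clone 21 carried much of this, since without that clone's library the ratio was 132 on fibronectin and 125 in knockout.

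A2M, the plasma inhibitor that traps proteases of every class, had 17.8, 13.5 and 15.3 CPM on fibronectin, 16.6, 10.1 and 15.7 CPM in knockout and 0.0739, 0.134 and 0.0328 CPM in wild-type, from 2, 4 and 1 counts. The ratio was 194 on fibronectin (94.1 to 485) and 176 in knockout (85.2 to 439), and 299 and 271 without wild-type line 2. LRP1, the receptor that clears A2M bound to a protease, was added outside the naming rule after its values were seen. LRP1 averaged 0.491 ± 0.0914 CPM on fibronectin, 0.467 ± 0.0446 CPM in knockout and 3.33 ± 0.840 CPM in wild-type, and fell by 2.82 in log2 units in knockout (adjusted p 7.79e-07, SE 0.253, edgeR). A2M mRNA is high in knockout by the rule and 27% of all tested genes fell there, so nothing is read from this pair. A link between the levels of A2M and LRP1 was not tested. Hepatocyte markers, for the organ that makes most plasma A2M, were near 0 as given above.

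CPE, a carboxypeptidase that trims prohormones in secretory granules of endocrine and nerve cells, had 104.0, 109.1 and 75.3 CPM on fibronectin, 92.5, 90.6 and 72.4 CPM in knockout and 0.111, 0.370 and 0.197 CPM in wild-type. The ratio was 411 on fibronectin (266 to 673) and 370 in knockout (239 to 606). SCUBE1, a secreted and surface glycoprotein of platelets and endothelium with EGF-like and CUB domains, had 24.9, 47.9 and 49.7 CPM on fibronectin and 18.9, 45.1 and 43.8 CPM in knockout. In wild-type it had 3, 1 and 1 counts. Its ratio was 718 on fibronectin (308 to 2213) and 636 in knockout (272 to 1961), and 1238 and 1115 without wild-type line 1, which held 3 of the 5 counts.

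TSPAN7, a tetraspanin of the plasma membrane that is mutated in X-linked intellectual disability, was the steadiest of the 10. It had 16.9, 16.8 and 13.9 CPM on fibronectin, 16.3, 14.8 and 14.7 CPM in knockout and 0.258, 0.269 and 0.295 CPM in wild-type, from 7, 8 and 9 counts. Its ratio was the lowest of the 10, at 57.1 on fibronectin (38.2 to 89.4) and 55.3 in knockout (37.0 to 86.7). CLIC2, which shares the fold of glutathione transferases, had 36.7, 54.2 and 45.1 CPM on fibronectin, 37.3, 52.0 and 47.2 CPM in knockout and 3, 2 and 2 counts in wild-type. Its ratio was 560 on fibronectin (272 to 1394) and 569 in knockout (276 to 1417).

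PGM5, or aciculin, resembles the phosphoglucomutases but lacks their activity and sits at adhesion sites of muscle and other cells. It had 23.1, 53.2 and 23.9 CPM on fibronectin, 18.9, 44.7 and 20.9 CPM in knockout, and 1, 1 and 0 counts in wild-type. Clone 22 stood above the others in both conditions. The ratio was 1390 on fibronectin with an interval of 384 to 11480, and 1227 in knockout with one of 339 to 10140. Without wild-type line 3, which had 0 counts, it was 905 and 800. Of the 10 smooth muscle and pericyte markers, 8 were under 1 CPM in every library and 2 were tested, of which 1 fell and 1 was not called in knockout against wild-type.

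FAM65B, now named RIPOR2, was the only one of the 10 with 0 counts in all 3 wild-type libraries, against 694, 340 and 516 counts on fibronectin and 563, 299 and 364 in knockout. Those are 24.9, 14.1 and 15.3 CPM on fibronectin and 21.5, 10.9 and 12.2 CPM in knockout. Against a floor of 3 counts over the wild-type group, FAM65B was at least 526-fold higher on fibronectin and at least 428-fold higher in knockout. Because the floor depends on the depth of the group, these bounds became 347 and 282 without wild-type line 2, and 342 and 279 without line 3.

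PPP2R2C, the B55 gamma regulatory subunit that gives protein phosphatase 2A its substrates, had 28.3, 31.1 and 23.4 CPM on fibronectin and 29.7, 31.4 and 23.4 CPM in knockout, against 0.0369, 0.134 and 0.164 CPM in wild-type. The ratio was 237 on fibronectin (129 to 495) and 245 in knockout (133 to 511). KIF19, a kinesin known from mouse to shorten the microtubules of cilia, had 9.59, 11.3 and 12.5 CPM on fibronectin, 4.71, 7.98 and 11.2 CPM in knockout, and 1 count in each wild-type library. Its ratio was 327 on fibronectin (112 to 1588) and 236 in knockout (80.3 to 1146).

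**Figure D1:**
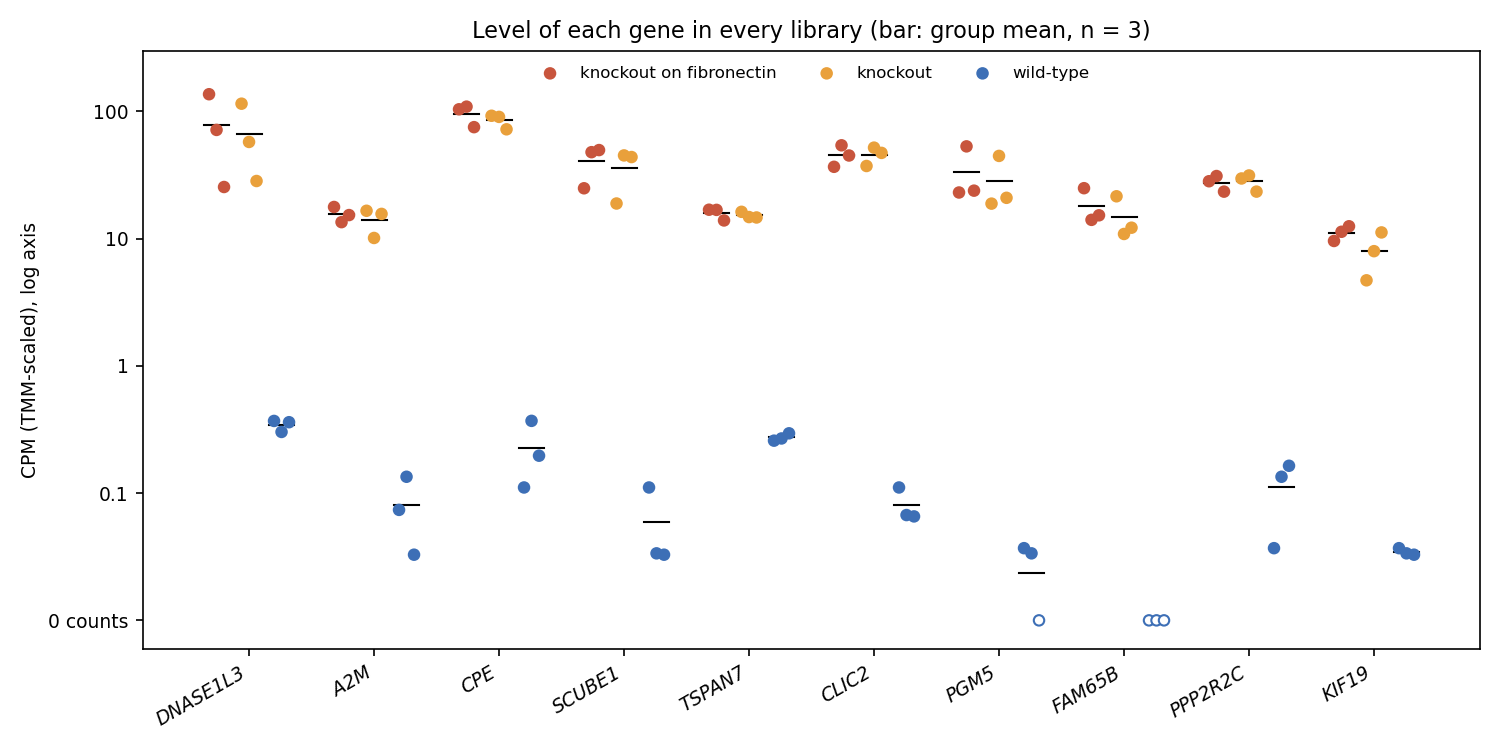
Level of each gene in CPM on a log axis, with 1 point per library, a bar at each group's mean (n = 3), and knockout on fibronectin left of knockout and wild-type. The knockout libraries lie from 4.71 to 136.6 CPM and the wild-type libraries at or under 0.370 CPM, with open points for 0 counts (3 for FAM65B and 1 for PGM5).

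Per length, the order of levels was the same in both knockout groups. In the authors' FPKM values, CPE averaged 32.9 ± 6.11 on fibronectin and 29.5 ± 3.94 in knockout, and DNASE1L3 30.5 ± 21.5 and 26.8 ± 17.7 (SD, n = 3 each). CLIC2 followed at 14.0 ± 2.85 and 14.3 ± 2.35 FPKM. SCUBE1, PGM5, TSPAN7 and PPP2R2C came next, between 8.79 and 5.33 FPKM on fibronectin and between 7.82 and 5.52 in knockout. A2M, FAM65B and KIF19 were lowest, between 2.77 and 2.54 FPKM on fibronectin and between 2.55 and 1.84 in knockout. Neighbours in this order overlapped in their libraries except at the steps from CLIC2 to SCUBE1 and from PPP2R2C to A2M. CPE lay at percentile 86.8 to 90.7 of all genes with a count on fibronectin and 86.3 to 89.3 in knockout, against 10.5 to 19.4 in wild-type. KIF19, at the low end, lay at percentile 45.2 to 49.0 on fibronectin and 36.5 to 47.0 in knockout. The order in wild-type was another one, with DNASE1L3 at 0.1397, TSPAN7 at 0.116 and CPE at 0.0793 FPKM on average and the other 7 genes at 0.026 or less.

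The authors' deposited table gave smaller log2 fold changes for knockout against wild-type than the fit used here. In the authors' deposited table DNASE1L3 had 4.35, the lowest of the 10, and CPE 7.65, the highest. In the edgeR fit DNASE1L3 had 7.59 (SE 1.27) and CPE 8.51 (SE 0.283), while the lowest was TSPAN7 with 5.77 (SE 0.166) against 5.17 in the authors' deposited table. The 10 genes were called in both.

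Whether fibronectin changed these genes in the knockout clones was examined next. The rule did not use the libraries on fibronectin. It did use the knockout libraries without it, the other side of this comparison, so the comparison is not independent of the choice. Without regard to the clone, 0 of the 10 passed an adjusted p of 0.05 (edgeR), and 0 had an unadjusted p under 0.05. Over all genes 1 was called by edgeR, 0.00725% of those tested, and 3078 had an unadjusted p under 0.05. DESeq2 called 991 genes and also 0 of the 10. The log2 fold change was positive in 8 of the 10, with a median of 0.18 against 0.0067 over all tested genes. The 2 negative values were -0.0328 (SE 0.130) in PPP2R2C and -0.0074 (SE 0.1405) in CLIC2. With 1 library left out, the sign changed in every one of the 10 but CPE and KIF19. In DNASE1L3 the value ran from -0.497 to 0.842. The authors' deposited table lists values from -0.0361 in PPP2R2C to 0.236 in KIF19 for this comparison, with adjusted p from 0.437 to 0.998 in the 10 genes.

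The libraries with and without fibronectin come from the same clones, and with the clone as a block KIF19 alone of the 10 rose, where 6.78% of 13257 tested genes were called in either direction and 4.97% rose. KIF19 rose by 0.50 in log2 units (adjusted p 0.0346, SE 0.134, edgeR with the clone as a block), and was higher on fibronectin in 3 of 3 clones. Its steps were 1.03 in clone 21, 0.51 in clone 22 and 0.16 in clone 23 on the log2 scale. Clone 21, the lowest without fibronectin at 4.71 CPM, showed the largest step, but the same 1 library sets both values. The call did not hold on every choice of libraries. In the block fit a library without its partner adds no step of its own to the fibronectin estimate. Leaving out either library of a clone therefore removes that clone's step, and the fits that follow are not separate checks. Leaving out 1 library at a time gave log2 fold changes of 0.31 to 0.73 with adjusted p from 0.026 to 0.201, and KIF19 was called in 2 of those 6 fits, those without clone 22 in either condition.

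FAM65B, PGM5 and SCUBE1 were also higher on fibronectin in 3 of 3 clones, but with the clone as a block their adjusted p stayed above 0.05 (edgeR). FAM65B had a log2 fold change of 0.27 (SE 0.0952, adjusted p 0.0775), PGM5 of 0.22 (SE 0.0817, adjusted p 0.0939) and SCUBE1 of 0.19 (SE 0.0817, adjusted p 0.141). FAM65B passed in the 2 fits that left out a library of clone 21, with adjusted p of 0.0303 without the library on fibronectin and 0.0431 without the one in knockout. CPE was the fifth gene higher in all 3 clones, at 0.14 (SE 0.0699, adjusted p 0.1998). In all, 5 of the 10 genes were higher in every clone, and 25.4% of tested genes were. DNASE1L3, A2M and TSPAN7 were higher in clones 21 and 22 and lower in clone 23, CLIC2 was higher in clone 22 alone, and PPP2R2C in none, with a log2 fold change of -0.05 (SE 0.0824, adjusted p 0.714). The median over the 10 was 0.13 with the block, against -0.0175 over all tested genes.

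**Figure D2:**
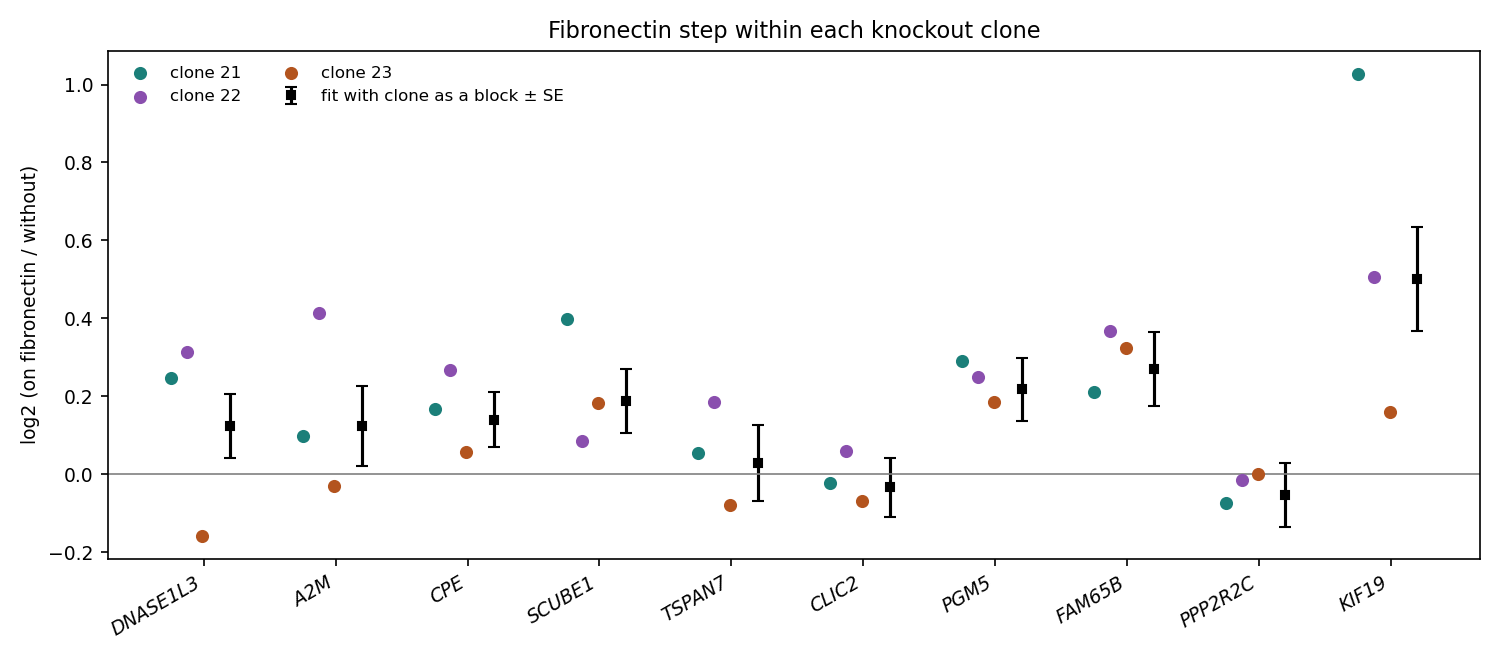
Change on fibronectin for each gene on the log2 scale, with 1 coloured point per clone and a black square with its SE for the blocked fit, which scales the 6 knockout libraries among themselves. KIF19 has the largest step, 1.03 in clone 21, and the squares of the other 9 genes lie between -0.05 and 0.27.

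The clones themselves differed in most of the 10 genes. The clone test also includes the knockout libraries that the rule used, so it is not independent of that choice. With a term for the clone over the 6 libraries of the knockout groups, 9 of the 10 passed an adjusted p of 0.05 (edgeR), where 3.79% of 13257 tested genes did. The exception was TSPAN7, with an adjusted p of 0.621 and a ratio of 1.16 between its highest and lowest clone. The clone means differed most in DNASE1L3, where clone 21 was 4.67 times clone 23 (adjusted p 2.80e-11). PGM5 was 2.33 times higher in clone 22 than in clone 21 (adjusted p 3.19e-09), and SCUBE1 2.14 times higher in clone 23 than in clone 21 (adjusted p 6.52e-08). FAM65B was 1.86 times higher in clone 21 than in clone 22 (adjusted p 1.09e-05).

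The other clone differences were smaller and depended more on the method. The ratio of the highest to the lowest clone was 1.66 in KIF19 (adjusted p 0.0235), 1.45 in A2M (0.0288), 1.43 in CLIC2 (0.00374), 1.35 in CPE (0.00283) and 1.33 in PPP2R2C (0.0372). DESeq2 called 6 of the 10 and gave adjusted p of 0.144 for KIF19, 0.285 for A2M and 0.280 for PPP2R2C. Without a library of clone 23 in either condition 4 of the 10 were called, and only DNASE1L3, PGM5, SCUBE1 and FAM65B passed in all 6 fits that left out 1 library. CLIC2 and PPP2R2C also lost their calls without clone 22 on fibronectin (adjusted p 0.136 and 0.387), and PPP2R2C and A2M without clone 22 in knockout (0.191 and 0.705).

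The clones did not rank in 1 common order. Clone 21 was highest in DNASE1L3, A2M, TSPAN7 and FAM65B and lowest in SCUBE1, CLIC2, PGM5 and KIF19. Clone 22 was highest in CPE, CLIC2, PGM5 and PPP2R2C, and clone 23 in SCUBE1 and KIF19. In 8 of the 10 genes the 3 clones kept the same order with and without fibronectin, as did 21.8% of tested genes. The exceptions were CPE, where clones 21 and 22 changed places, and SCUBE1, where clones 22 and 23 did. Each pair shares its clone, with 1 library per condition.

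**Figure D3:**
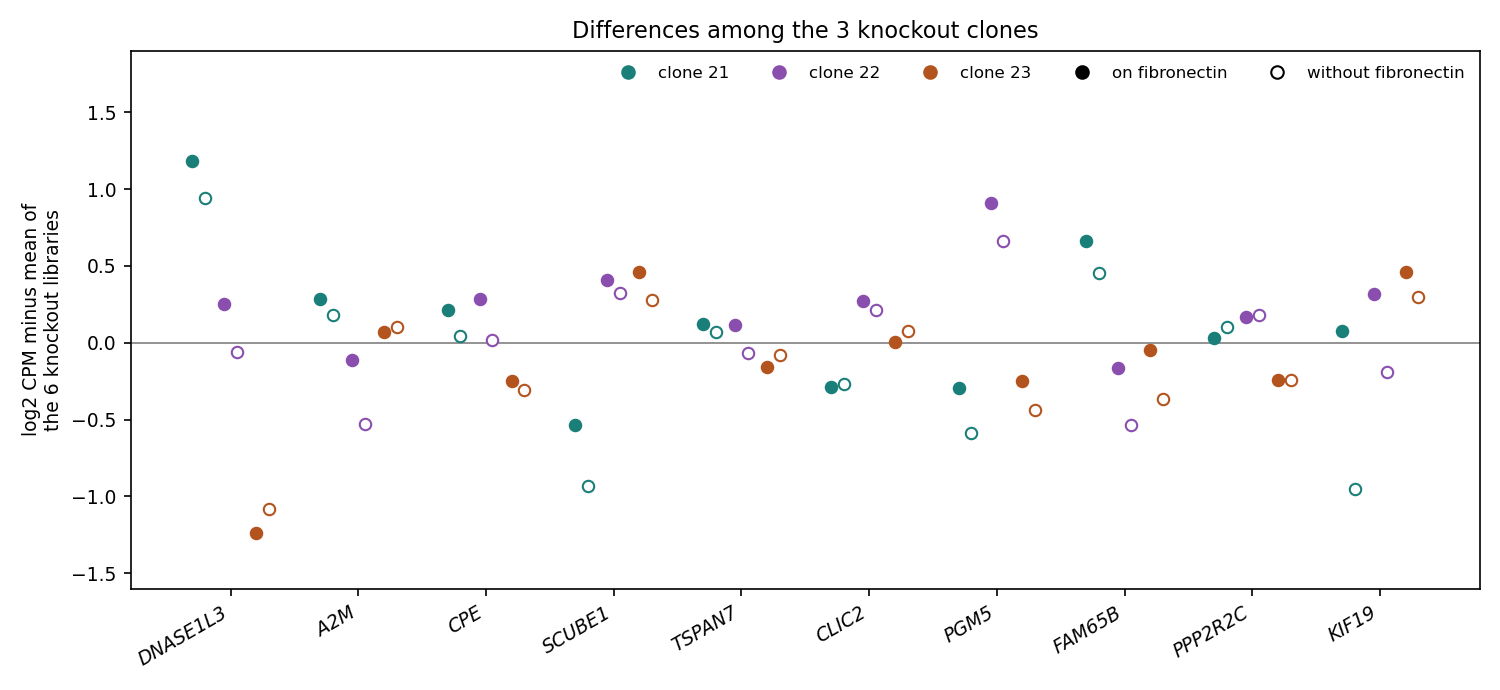
Log2 CPM of each knockout library minus the mean of the 6 knockout libraries of that gene, with filled points on fibronectin, open points without it and 1 colour per clone. DNASE1L3 has the widest spread, with clone 21 above and clone 23 below, and TSPAN7 the narrowest, with a ratio of 1.16 between its clones.

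Relatives of the 10 genes were examined because the rule did not use them, and 45 of the 68 listed were tested in knockout against wild-type (edgeR, adjusted over all genes). Of these 17 rose, 13 fell and 15 were not called, where 23% of all tested genes rose and 27% fell, 50.1% in all. The median log2 fold change was 0.14, against -0.03 over all tested genes. The families did not move as one with their switched-on member.

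Among the proteins that work outside the cell, DNASE1L1 rose by 0.96 in log2 units (adjusted p 2.77e-08, SE 0.0613) and averaged 174.3 CPM on fibronectin, 155.2 CPM in knockout and 80.1 CPM in wild-type. DNASE1 was not called, at -0.17 (SE 0.187). PZP, the closest relative of A2M, rose by 2.50 (SE 0.323, adjusted p 2.50e-05), though only to 0.850 CPM on fibronectin and 0.862 CPM in knockout, against 0.1502 CPM in wild-type. CD109, a membrane-anchored member of the same family, rose by 0.48 (SE 0.0763), and complement C5 fell by 0.57 (SE 0.180, adjusted p 0.0177, 0.0519 with DESeq2). The C5 call was lost without wild-type line 1 (0.0838) or the knockout library of clone 21 (0.0793) or 22 (0.0559). The carboxypeptidases related to CPE went the other way. CPD fell by 0.34 (SE 0.0653) and AEBP1 by 0.47 (SE 0.145, adjusted p 0.0204, 0.0788 with no filter on low counts). The AEBP1 call was lost without wild-type line 1 or 2 or the knockout library of clone 22 or 23, with adjusted p from 0.0624 to 0.0903. CPXM1 was not called at -0.44 (SE 0.298). SCUBE3, the one SCUBE relative tested, was not called at 0.36 (SE 0.253).

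Of 23 tested tetraspanins other than TSPAN7, 11 rose, 5 fell and 7 were not called, where 23% of all tested genes rose and 27% fell. TSPAN18, a tetraspanin of endothelium, rose by 2.71 (SE 0.129, adjusted p 6.86e-09) and averaged 90.7 ± 15.1 CPM on fibronectin, 85.9 ± 8.72 CPM in knockout and 13.1 ± 1.44 CPM in wild-type. TSPAN1 rose by 3.61 (SE 0.270, adjusted p 1.32e-07), and TSPAN13 fell by 2.45 (SE 0.141, adjusted p 9.55e-09) to 3.58 CPM on fibronectin and 4.22 CPM in knockout, against 22.99 CPM in wild-type. CD53, a tetraspanin of leukocytes that was named after its values were seen, was also at 0 in wild-type. It had 26, 8 and 98 counts on fibronectin, 29, 16 and 70 counts in knockout and 0 in all 3 wild-type libraries. Against a floor of 3 counts over the wild-type group it was at least 44.8-fold higher on fibronectin and at least 40.1-fold higher in knockout, with an adjusted p of 0.0333 in knockout (edgeR). That call was lost without clone 21 on fibronectin, without clone 21 or 23 in knockout or without any 1 wild-type line, with adjusted p from 0.0521 to 0.0921, and with no filter on low counts (0.0925). The sum of the 9 leukocyte markers was also higher in the knockout groups, as given above, with 6 of the 9 under 1 CPM in every library. Of these markers 4 were tested in knockout against wild-type, of which 4 rose and 0 fell. Their log2 fold changes ran from 0.58 to 6.60 with a median of 3.16. The part of these markers in the CD53 result was not tested.

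Among relatives of the genes that act inside the cell, changes went in both directions. CLIC1, at 654 CPM on fibronectin, 625 CPM in knockout and 556 CPM in wild-type, rose by 0.17 (SE 0.0639, adjusted p 0.0412), a call that was lost without wild-type line 1 or 2 or without the knockout library of clone 22 or 23, with adjusted p from 0.069 to 0.146. CLIC3 had a log2 fold change of -1.39 (SE 0.593, adjusted p 0.0667), which passed without clone 22 or 23 on fibronectin (0.0379 and 0.0451), without clone 23 in knockout (0.0268) and with no filter on low counts (0.0453). CLIC4 had a log2 fold change of -0.02 (SE 0.0875), whose sign changed with the scaling (0.0027 with DESeq2's size factors in the edgeR fit). PGM2L1 fell by 1.28 (SE 0.0979, adjusted p 1.67e-07), PGM2 rose by 0.44 (SE 0.0603) and PGM3 fell by 0.43 (SE 0.0618). FAM65A, which binds CCM3 itself, rose by 0.20 (SE 0.0770, adjusted p 0.0467). That call was lost without wild-type line 2 or 3 or the knockout library of clone 22 or 23, with adjusted p from 0.110 to 0.215. Of the other B55 subunits of protein phosphatase 2A, PPP2R2D fell by 0.27 (SE 0.0663, adjusted p 0.00389) and PPP2R2A was not called at -0.05 (SE 0.0598). The kinesins nearest to KIF19, KIF18A and KIF18B, which act on microtubules of the mitotic spindle, fell by 0.62 and 0.76.

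**Figure D4:**
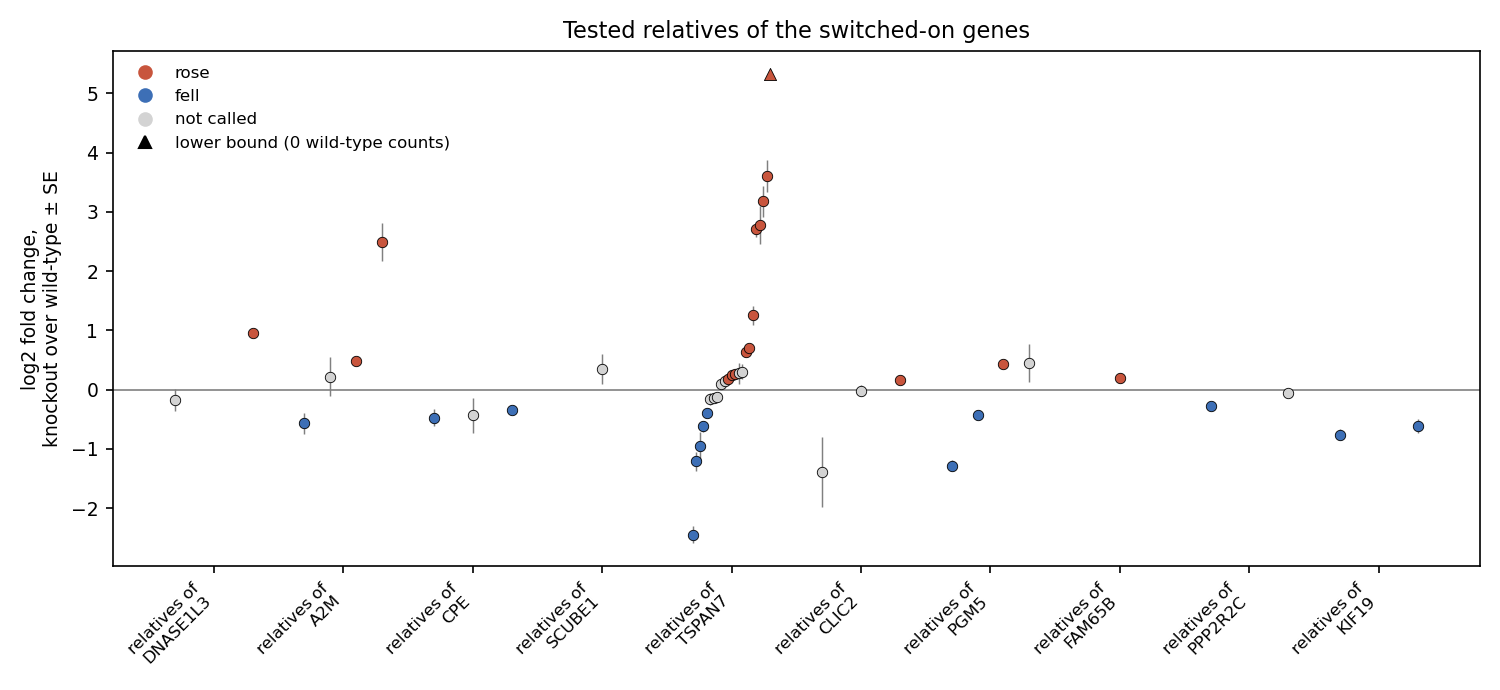
Log2 fold change of knockout over wild-type for the 45 tested relatives, grouped under the gene they resemble, with SE bars. Both directions occur among relatives of A2M, TSPAN7 and PGM5, and the triangle is CD53, drawn at its lower bound because it had 0 counts in wild-type.

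Neighbouring genes on the chromosome were a second measure that the rule did not use. The 3 nearest genes on each side in the RefSeq order whose names are in the count table gave 60 neighbours, of which 33 were tested. Of these 14 rose, 4 fell and 15 were not called in knockout against wild-type, where 23% of all tested genes rose and 27% fell, with a median log2 fold change of 0.17 against -0.03 over all tested genes. Among the nearest gene on each side, 10 were tested, of which 6 rose and 0 fell, against the same shares. Of the 14 that rose with 3 on each side, 5 lay beside FAM65B.

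At FAM65B, described first because of its values, 5 of 5 tested neighbours rose in knockout, where 23% of all tested genes did. Next to it, CMAHP, the human remnant of the enzyme that makes N-glycolylneuraminic acid in other mammals, had 29.6, 23.99 and 21.5 CPM on fibronectin, 29.5, 24.7 and 19.8 CPM in knockout and 2.03, 1.98 and 1.54 CPM in wild-type. It rose by 3.73 in log2 units (adjusted p 1.22e-08, SE 0.191, edgeR). LRRC16A, or CARMIL1, which frees actin filament ends from capping protein, had 11.6, 13.3 and 11.4 CPM on fibronectin, 14.5, 11.7 and 12.7 CPM in knockout and 1.26, 1.24 and 1.44 CPM in wild-type. It rose by 3.29 (SE 0.139, adjusted p 4.61e-10). In both genes the libraries of the 2 knockout groups overlapped each other and all lay above every wild-type library. On the other side GMNN rose by 0.34 (SE 0.0799), C6orf62 by 0.21 (SE 0.0662) and ACOT13 by 0.28 (SE 0.0724), with adjusted p of 0.0172 or less. C6orf62 lost its call without wild-type line 1 (0.0553). Whether FAM65B and its neighbours share regulation was not tested.

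At the other loci the neighbours varied. PZP, given above, lies next to A2M. TLL1, a secreted metalloprotease gene near CPE, fell by 4.34 (SE 0.399, adjusted p 7.29e-06). It had 0.216, 0.827 and 0.444 CPM on fibronectin and 0.153, 1.09 and 0.436 CPM in knockout, against 11.8, 11.1 and 11.6 CPM in wild-type. TLL1 was low in the groups where CPE is high by the rule, and a link between them was not tested. MSMO1, a sterol synthesis enzyme on the other side of CPE, rose by 0.79 (SE 0.101). None of the 3 tested neighbours of SCUBE1 and neither of the 2 of CLIC2 was called. The 1 tested neighbour of KIF19 fell, and of the 2 of PGM5, 1 fell and 1 was not called.

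Some neighbours overlap the 10 genes, and the strand setting of the counting is not given, so reads from overlapping or antisense partners cannot be told apart. KLRG1, a receptor gene of lymphocytes whose annotated span overlaps that of A2M, rose by 0.76 (SE 0.184, adjusted p 0.0037), with 2.62 ± 0.0487 CPM on fibronectin, 3.10 ± 0.369 CPM in knockout and 1.83 ± 0.417 CPM in wild-type. A2M-AS1 had 16, 17 and 12 counts in all in the 3 groups in that order, and its level did not follow A2M. PGM5-AS1 had 14 counts on fibronectin, 18 in knockout and 0 in wild-type, too few to be tested. A2M and PGM5 both have pseudogene copies that may share reads. A2MP1 was at 0 in all 9 libraries, and PGM5P2 fell by 1.86 (SE 0.266, adjusted p 6.40e-05) while PGM5 was higher. ASS1P1, a pseudogene copy of the arginine synthesis enzyme ASS1, lies within the annotated span of FAM65B and is not a row of the count table. ASS1 itself, named after its values were seen, rose by 4.82 (SE 0.170, adjusted p 1.18e-09), with 95.5 ± 18.8 CPM on fibronectin, 70.0 ± 5.11 CPM in knockout and 2.47 ± 0.293 CPM in wild-type, and any share of its reads in the FAM65B counts was not tested.

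**Figure D5:**
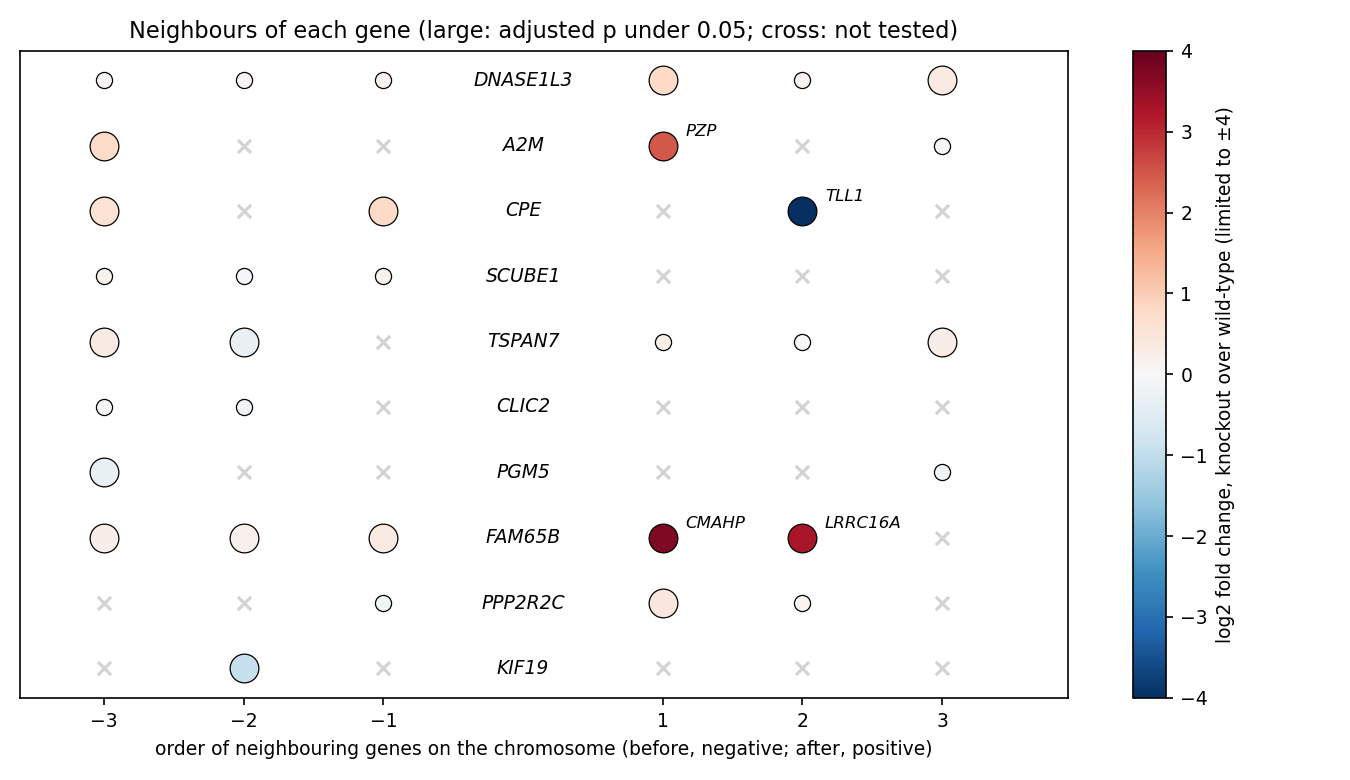
Log2 fold change of knockout over wild-type, as colour limited to ±4, for the 3 nearest genes before and after each gene in chromosome order. Large circles passed an adjusted p of 0.05, crosses were not tested, and the 5 circles beside FAM65B are all red, with CMAHP at 3.73 and LRRC16A at 3.29.

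Genes outside the 10 with the same pattern were few. The limits were the highest wild-type library of the 10, 0.370 CPM in CPE, and the lowest knockout library, 4.71 CPM in KIF19. Inside both lay 8 other genes, besides the 10 themselves, which set the limits. The reverse pattern within the same limits, counted over all genes with none set aside, had 23 genes. The counts of 8 and 23 are therefore not on a like footing. The 8 were CMKLR1, ST6GALNAC1, LYPD5, NOSTRIN, KCNN4, AQP1, GPR1 and MMP28, and all 8 stayed above the lower limit on fibronectin. CMKLR1, a receptor for chemerin, averaged 23.7 CPM on fibronectin, 22.1 CPM in knockout and 0.0222 CPM in wild-type, from 2 wild-type counts. GPR1, a second chemerin receptor, averaged 10.2, 10.9 and 0.356 CPM in that order of groups. AQP1, the water channel of endothelium and red cells, averaged 13.1 CPM on fibronectin, 13.8 CPM in knockout and 0.249 CPM in wild-type. NOSTRIN, an adaptor that moves endothelial nitric oxide synthase off the membrane, averaged 10.2 CPM on fibronectin, 11.5 CPM in knockout and 0.159 CPM in wild-type.

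These 8 genes split in the fibronectin and clone tests. Both tests include the knockout libraries that also set which genes lay inside the limits. KCNN4, a calcium-activated potassium channel, was the one of the 8 called on fibronectin with the clone as a block, where 6.78% of tested genes were, with a log2 fold change of 0.44 (adjusted p 0.0187, edgeR), a call lost without clone 23 in either condition (0.201). It averaged 21.3 CPM on fibronectin, 15.4 CPM in knockout and 0.2204 CPM in wild-type. NOSTRIN, GPR1 and AQP1 differed between clones, with adjusted p of 1.79e-05, 2.63e-05 and 0.0335 (edgeR), where 3.79% of tested genes did, and the other 5 were not called. MMP28, a metalloprotease at the edge of the limits, averaged 6.42 CPM on fibronectin, 5.83 CPM in knockout and 0.265 CPM in wild-type.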

How the data were processed

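Per the labels' protocols, RNA was extracted and made into libraries with the TruSeq Stranded mRNA kit. Per the submitters' processing notes, STAR, HTSeq and the GRCh37 (hg19) build were used. The sources used here do not give versions or the strand setting. The authors deposited raw counts per gene symbol for 9 libraries, with 0 columns left without a sample, and FPKM values per gene and library. The authors also deposited comparison tables with log2 fold changes, p-values and adjusted p-values; the program behind them is not given.

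The counts were fitted with edgeR 4.0.16 in R 4.3.3 (TMM scaling, filterByExpr with a minimum count of 10 and total of 15, robust quasi-likelihood F test, Benjamini-Hochberg over all tested genes). One fit of 3 groups held 13802 genes. A fit of clone and fibronectin over the 6 knockout libraries held 13257 and gave the clone test (2 terms) and the block. The same clones stand in both knockout groups per the labels, and deviations from group means correlated at r = 0.371, 0.45 and 0.543 within clones, against -0.497 to 0.025 between clones, over 10205 genes. DESeq2 1.42.0 was an alternative. Scripts were tested on simulated data.

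A ratio against 0 counts uses a floor of 3 counts over the group. Neighbours came from RefSeq gene order; promoters came from RefSeq windows of 300 bases. Named were all 10 genes, up to 3 tested relatives per family by smallest p, neighbours called with an absolute log2 fold change of at least 1 or overlapping, and up to 10 genes of like pattern. GMNN, C6orf62, ACOT13, MSMO1, LRP1, CD53 and ASS1 were named beyond this, after their values were seen. PGM5P2 and A2MP1 were also named beyond it, as pseudogene copies. The 10 genes, the lists and the rules were chosen with earlier results of these data known. Replicate libraries differed by more than sampling noise (chi-square per degree of freedom 5.37 to 21.8).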

Additional observations from a re-analysis of the deposited data

How the results depend on the processing

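In all, 104 results were recomputed to give 1270 alternative values, of which 1161 were counted as keeping their direction, call or size. Ratios to wild-type were counted as kept over wide moves. With 1 library left out, the knockout ratio of PGM5 ran from 799.5 to 1721, against 1227 with all libraries. That of SCUBE1 ran from 518 to 1115, against 636, and every one of these values was counted as kept. The 1161 therefore says little about how steady the ratios to wild-type are. With the clone as a replicate block, which pairs the libraries of a clone, 899 genes and 1 of the 10 (KIF19) were called on fibronectin, against 1 gene and 0 of the 10 without it; leaving out 1 library from that block fit, added after the data were seen, gave 0 genes without clone 23, 838 and 798 without clone 22 and 518 and 440 without clone 21 (each on fibronectin, then in knockout), and 0 to 1 of the 10. Without the block, the genes called on fibronectin were 383 with no filter on low counts, 991 with DESeq2, 0 in the 6 knockout libraries alone and 0 to 488 (without clone 22 on fibronectin) when 1 library was left out. For clones, 825 genes were called with no filter, 261 with DESeq2 and 64 (without clone 23 on fibronectin) to 2351 (without clone 21 in knockout) with 1 library left out, against 502, and 4 to 9 of the 10. With 1 neighbour on each side, 6 rose and 0 fell. The sign of CLIC4 turned, to 0.0027 with DESeq2's size factors, 0.0049 with DESeq2, 0.014 in the knockout and wild-type libraries alone and -0.0567 to 0.0623 with 1 library left out. The fibronectin log2 fold change without a block changed sign when 1 library was left out, over -0.497 to 0.842 in DNASE1L3, -0.264 to 0.736 in PGM5, -0.132 to 0.427 in SCUBE1, -0.0316 to 0.636 in FAM65B, -0.053 to 0.256 in A2M, -0.153 to 0.109 in CLIC2, -0.151 to 0.0519 in PPP2R2C and -0.0064 to 0.123 in TSPAN7. With the block it did so in TSPAN7, over -0.0419 to 0.092, at -0.0277 without clone 22 on fibronectin. The cause of these moves was not tested, beyond the smaller number of libraries. A fit with a clone term that leaves out 1 library of a clone keeps 1 library there. That library adds no fibronectin step of its own, and in the clone test it is assumed to vary like the others. Every ratio to wild-type rests on wild-type counts of 0 to 11 per library, and some ratios also moved with the knockout libraries. The knockout ratio of DNASE1L3 was 125.3 without clone 21 in knockout, against 189.6 with all libraries.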
